A study of Homo sapiens with 32 samples.

Results

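Decay rates of APP, ZNF395, the APP paralogs and the genes that cut the APP protein were compared between the human breast cancer line MDA-MB-231 and its derivative MDA-LM2. The genes were taken by symbol: APP and ZNF395, which the study's paper names as metastasis suppressors whose transcripts are destabilised through TARBP2, and APLP1, APLP2, ADAM10, BACE1, BACE2, PSEN2 and NCSTN. Of these 9 genes, 8 had a rate in at least 1 of the tables, among 11979 genes with a symbol in either table, and 7 had a rate in both. They were listed as 16 RefSeq transcripts of 15772 in either table, with 9 in both tables, 4 in the MDA-LM2 table alone and 3 in the MDA-MB-231 table alone. APLP1 has no row in either table.

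MDA-MB-231 is an established line of basal, mesenchymal character, and MDA-LM2 was derived from it by selection for lung metastasis. Both were grown in DMEM with serum, given 4-thiouridine (4sU, a uridine analogue that enters newly made RNA) for 2 h, and chased in medium with excess uridine. Labelled RNA was precipitated and sequenced 0, 2, 4 and 7 h into the chase, in 32 libraries, 16 for each line. The labels name no transgene, knockdown or other treatment for either line, and each arm is a single cell line, so a difference concerns these lines only. For each line the tables hold 4 replicate series, and each series gives every transcript 1 decay rate, in the deposited unit, positive where labelled RNA was lost over time. Nothing in the sources says that the series were separate cultures, so the p-values measure only the spread between series, which may be technical. Errors are SDs of a line's 4 rates.

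APP is a single-pass membrane protein. Alpha-secretase, chiefly ADAM10, cuts it outside the membrane and sheds a soluble ectodomain; beta-secretase, BACE1, makes the other first cut; the gamma-secretase complex, built of a presenilin, nicastrin (NCSTN), APH1 and PSENEN, then cuts the membrane stub. After BACE1, gamma-secretase releases amyloid beta. ZNF395 is a zinc finger protein that enters the nucleus and acts in transcription. TARBP2 is a double-stranded RNA-binding protein best known as a partner of Dicer. How long an mRNA lasts sets, together with its synthesis, how much of it a cell holds.

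The listed isoforms of APP, APLP2 and BACE1 differ by short coding exons, which are shown here because the rates below are given isoform by isoform. The sequences are those of GENCODE release 29 on GRCh38, printed 5′ to 3′ on the strand of the gene. APP exon 7 (chr21:26000015-26000182, minus strand) encodes the Kunitz protease inhibitor domain and is in the gene models paired with NM_000484, NM_001204301, NM_001136130 and NM_201413. The last of these models is also the one paired with NM_001204302, which is left out of the exon lists here. The matching exon 7 of APLP2 (chr11:130123612-130123779, plus strand) is in NM_001642 only. Capitals in this pair mark the 109 of 168 positions (64.9%) at which the paralogs have the same base.
APP exon 7: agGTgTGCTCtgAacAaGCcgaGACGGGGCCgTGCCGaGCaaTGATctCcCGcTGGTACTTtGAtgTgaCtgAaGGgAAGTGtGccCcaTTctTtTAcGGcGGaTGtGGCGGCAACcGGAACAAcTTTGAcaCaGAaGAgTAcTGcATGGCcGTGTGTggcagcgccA
APLP2 exon 7: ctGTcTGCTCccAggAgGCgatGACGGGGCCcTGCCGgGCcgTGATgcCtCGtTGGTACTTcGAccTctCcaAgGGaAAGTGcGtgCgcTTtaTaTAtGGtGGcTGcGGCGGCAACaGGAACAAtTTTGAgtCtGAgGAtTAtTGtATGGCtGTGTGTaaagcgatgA

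The remaining exons separate isoforms of 1 gene. APP exon 8 (chr21:25997360-25997416, minus strand, 57 bases) is in NM_000484, NM_001204301 and NM_001136130 and is skipped in NM_201413. APP exon 15 (chr21:25905024-25905077, minus strand, 54 bases) is skipped in NM_001204301. APP exon 2 (chr21:26111979-26112146, minus strand, 168 bases, not printed) is skipped in NM_001136130. APLP2 exon 14 (chr11:130137256-130137291, plus strand, 36 bases) is skipped in NM_001142277. Skipping of APP exon 15, or of the APLP2 exon, is known to create an attachment site for chondroitin sulfate. A 75-base stretch at the start of BACE1 exon 3 (chr11:117293934-117294008, minus strand) is in NM_001207048 and in neither of the other listed BACE1 isoforms. No letters are capitalised in these 4.
APP exon 8: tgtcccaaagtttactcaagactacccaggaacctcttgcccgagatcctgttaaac
APP exon 15: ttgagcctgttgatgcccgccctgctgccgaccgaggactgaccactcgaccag
APLP2 exon 14: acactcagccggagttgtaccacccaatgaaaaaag
BACE1 exon 3, first stretch: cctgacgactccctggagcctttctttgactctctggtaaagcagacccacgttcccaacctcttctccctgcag

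Across all transcripts, most rates lay within 1 of 0 in both lines. All 8 rates lay within 1 of 0 for 8496 of the 12966 transcripts in both tables (65.5%), and such transcripts are called in range below. Of all rates, 4.24% lay more than 1 from 0 in MDA-LM2, against 18.3% in MDA-MB-231. Such rates were more frequent where a gene had several isoforms. Of 8199 transcripts from genes with 1 listed transcript, 6.18% had a rate beyond 1 in MDA-LM2; in MDA-MB-231 the share was 23.1%. Of 4562 transcripts from genes with 2 or more, 17.4% had one in MDA-LM2 and 51.2% did in MDA-MB-231. All 6 markers of basal mesenchymal lines that were checked (VIM, CD44, AXL, FN1, SNAI2 and CAV1) had a rate in both lines, and of 5 luminal markers only EPCAM did. Of 3 immune markers CD68 had a rate in both lines, and of 5 endothelial and fibroblast markers COL1A1 had one, in MDA-MB-231 only. A listed rate is not a level, and read depth is unknown.

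Differences between the lines are given as MDA-LM2 minus MDA-MB-231, so a negative value is slower decay in MDA-LM2. They were tested in limma with Benjamini-Hochberg adjustment over all 12966 transcripts and a threshold of 0.05. Of the 9 member transcripts in both tables, 1 was called slower in MDA-LM2, against 783 of all 12966 (6.04%). None was called faster, against 246 of all (1.9%), and 2 members had an unadjusted p under the threshold. These background counts fell to between 457 and 520 slower and 91 and 102 faster when any 1 of the 4 MDA-LM2 series was left out, and to 154 faster without MDA-MB-231 replicate 1. After centring of each series on its median they were 622 slower and 442 faster. Allowing for a correlation between series of a line that share the second number of the sample title (estimated at 0.460) they were 385 and 37, and on means of such series 0 and 0. All 4 MDA-LM2 rates lay below all 4 MDA-MB-231 rates for 1 member, as for 2157 of all transcripts (16.6%), and above them for 1 member, as for 756 (5.83%). The mean was lower in MDA-LM2 for 5 members and higher for 4, whereas 66.2% of all transcripts had a lower mean in MDA-LM2. The median difference was -0.00940 over the 9 members and -0.0538 over all transcripts.

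**Figure D1:**
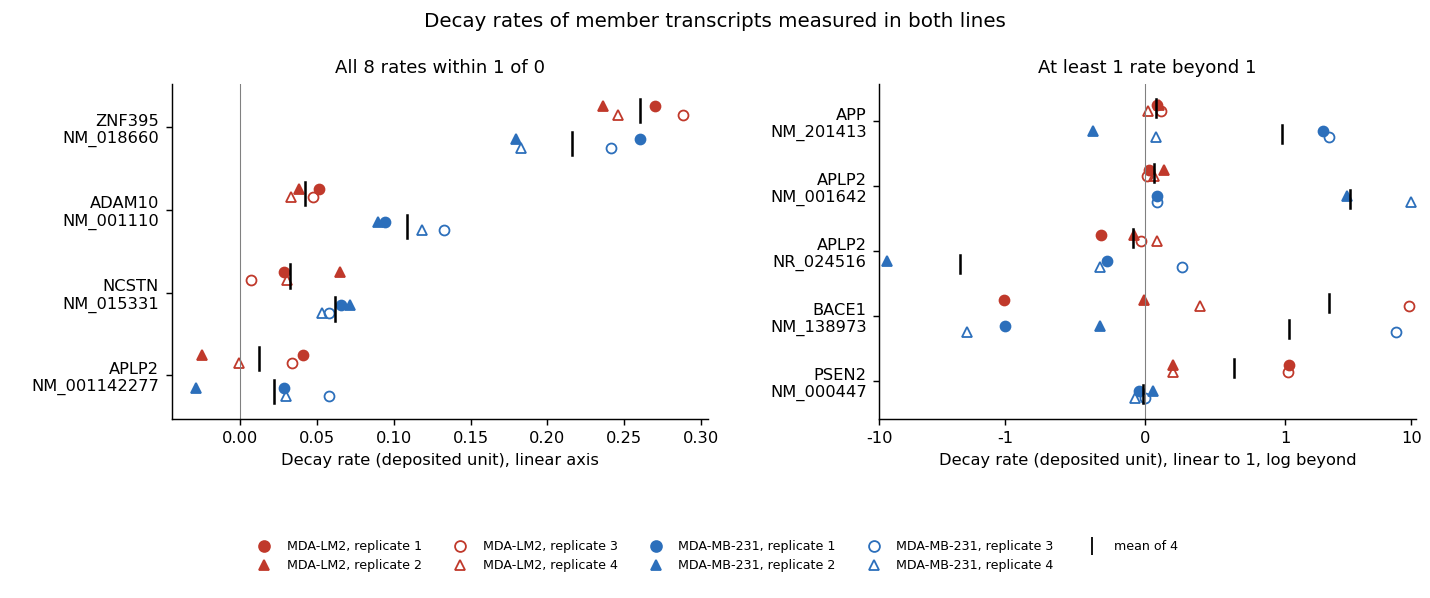
Decay rates, in the deposited unit, of the 9 member transcripts in both tables; points are the 4 series of each line (circles replicates 1 and 3, triangles replicates 2 and 4) and bars their means. The left panel has a linear axis and holds the 4 transcripts in range; the right panel is linear to 1 and logarithmic beyond and holds the 5 with a rate beyond 1. ADAM10 separates by line on the left and PSEN2 on the right, while the APP rates of MDA-MB-231 spread from -0.376 to 2.22.

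ZNF395 decayed fastest of the members in range, in both lines, and no difference between the lines passed the test. Its single listed transcript, NM_018660, had rates of 0.270, 0.236, 0.289 and 0.246 in MDA-LM2 replicates 1 to 4. In MDA-MB-231 it had rates of 0.260, 0.179, 0.242 and 0.183. Replicates 1 and 3 of MDA-MB-231 lay among the MDA-LM2 values, so the groups overlap. In each MDA-LM2 series the transcript stood between percentiles 64.5 and 79.0 of all transcripts, and in MDA-MB-231 between 50.3 and 63.4.

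The mean ZNF395 rate was 0.260 ± 0.0237 in MDA-LM2, against 0.216 ± 0.0411 in MDA-MB-231 (SD, n = 4 series each). The difference of 0.0442 (SE 0.0270, 95% interval -0.0198 to 0.108) had a limma adjusted p of 0.319. An exact permutation test (two-sided, 4 rates against 4, smallest possible p 0.0286) gave p = 0.143, unadjusted, as 1 of 9 such tests. After centring of each series on its own median, the difference was 0.0673 with an adjusted p of 0.184 and an exact permutation p of 0.0571. Replicates 1 and 3 carry the same second number in the sample titles, as do replicates 2 and 4, and the meaning of that number is not given in the sources used here. In both lines ZNF395 was higher in replicates 1 and 3 than in 2 and 4. The difference between the lines was 0.0284 over replicates 1 and 3 and 0.0600 over replicates 2 and 4, of the same sign in both.

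APP was listed as 5 isoforms, of which only NM_201413 had rates in both lines. NM_201413 lacks exon 8 and keeps the Kunitz exon printed above. Its rates in MDA-LM2 were 0.0857, 0.0974, 0.112 and 0.0156, with a mean of 0.0776 ± 0.0426 (SD, n = 4). In MDA-MB-231 they were 1.99, -0.376, 2.22 and 0.0759, with a mean of 0.976 ± 1.32 (SD, n = 4). The MDA-LM2 rates were alike, and the MDA-MB-231 rates lay on both sides of them.

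The difference for APP was -0.898 (SE 0.611, 95% interval -2.34 to 0.546), with a limma adjusted p of 0.368 and an exact permutation p of 0.4, so no difference was called. The interval covers slower and faster decay in MDA-LM2. Single MDA-MB-231 series moved the value, to -0.485 without replicate 3, -0.561 without replicate 1 and -1.35 without replicate 2, and with rates limited to the range from -1 to 1 it was -0.347. The pairs of series disagreed in sign: the difference was -2.00 over replicates 1 and 3 and 0.207 over replicates 2 and 4. Within the MDA-MB-231 series APP ranged from percentile 4.39 to 84.5 of all transcripts, and within the MDA-LM2 series from 14.2 to 37.9.

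The other 4 APP isoforms had rates in 1 line each and hence no comparison. NM_000484, the longest form, with all the exons above, had rates of 1.16, 0.208, -0.116 and 0.0458 in MDA-LM2. NM_001204301, which skips exon 15, had 1.01, 9.49, -0.0876 and 0.696 there. NM_001204302 had -0.0718, 9.58, 0.150 and 0.680 there and shares its gene model with NM_201413, so the exons that separate that pair are not given. Both of these isoforms have their highest rate in replicate 2. NM_001136130, which skips exon 2, had 0.809, 10.0, 0.101 and 9.93 in MDA-MB-231, with replicates 2 and 4 far above 1 and 3. The isoforms share most of their exons and hence most reads, so their rates are not independent and were not tested against each other.

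**Figure D2:**
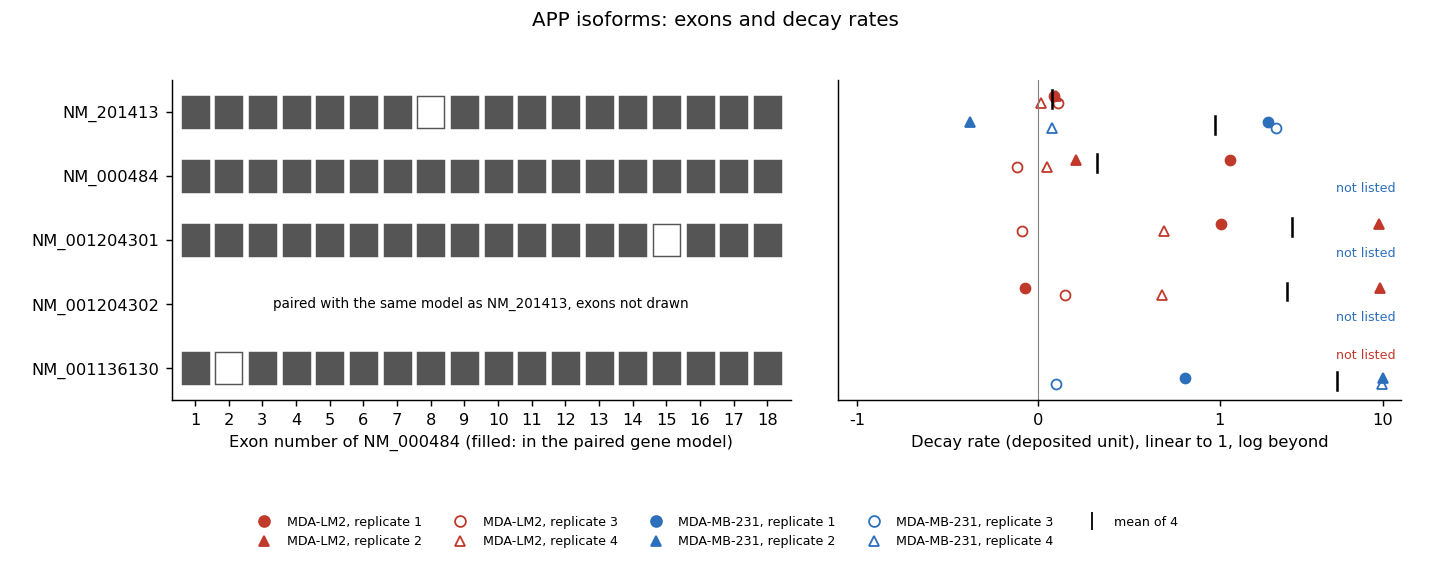
The 5 listed APP isoforms. Left, the 18 exons of NM_000484, filled where the isoform's gene model has them (exons not to scale); right, decay rates in the deposited unit, linear to 1 and logarithmic beyond, for each series and line, with bars at the means. Only NM_201413 has rates in both lines, and rates near 10 in 1 or 2 series set the means of 3 isoforms.

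The paralog APLP2 decayed slowly in both lines in 1 isoform, NM_001142277, and the rates of its other isoforms were widely scattered in MDA-MB-231. APLP2 is a broadly expressed relative of APP that is cut by the same proteases but holds no amyloid beta sequence. NM_001142277, which lacks both exons printed above, had rates of 0.0409, -0.0248, 0.0340 and -0.000632 in MDA-LM2. The MDA-MB-231 rates were 0.0283, -0.0287, 0.0579 and 0.0296. The groups overlap over nearly their whole range, and replicate 2 was lowest in both lines. The difference of -0.00940 (SE 0.0242, 95% interval -0.0666 to 0.0477) had a limma adjusted p of 0.805. Its sign is not fixed: without MDA-LM2 replicate 2 it was 0.00298, without MDA-MB-231 replicate 3 it was 0.00264, and after centring each series on its median it was 0.0137.

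NM_001642, the APLP2 isoform with the Kunitz exon, had rates of 0.0252, 0.135, 0.0136 and 0.0595 in MDA-LM2. Its MDA-MB-231 rates were 0.0862, 3.06, 0.0815 and 9.89. Replicates 1 and 3 of MDA-MB-231 thus lay within the range of MDA-LM2, and replicates 2 and 4 far above it. The difference of -3.22 (SE 2.15, 95% interval -8.32 to 1.87) had a limma adjusted p of 0.360, with -0.0645 over replicates 1 and 3 and -6.38 over replicates 2 and 4. Without MDA-MB-231 replicate 4 it was -1.02, and with rates limited to the range from -1 to 1 it was -0.484. NR_024516, which also lacks the Kunitz exon and whose paired gene model skips exons 2 and 3 and has the GENCODE type nonsense-mediated decay, had rates of -0.317, -0.0823, -0.0300 and 0.0852 in MDA-LM2. In MDA-MB-231 it had -0.272, -8.77, 0.264 and -0.325. The single rate of -8.77 sets that mean, and the difference of 2.19 (SE 2.01, 95% interval -2.56 to 6.94) had a limma adjusted p of 0.488. Without MDA-MB-231 replicate 2 it was 0.0251. Over replicates 1 and 3 it was -0.169 and over replicates 2 and 4 it was 4.55.

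ADAM10, the main alpha-secretase, was the only member called, as slower in MDA-LM2, and most alternative analyses lost that call. Its transcript NM_001110 had rates of 0.0515, 0.0381, 0.0475 and 0.0328 in MDA-LM2. The MDA-MB-231 series gave 0.0946, 0.0896, 0.133 and 0.118. Every MDA-LM2 rate lay below every MDA-MB-231 rate. The means were 0.0425 ± 0.00855 and 0.109 ± 0.0202 (SD, n = 4 each), and the difference was -0.0662 (SE 0.0150, 95% interval -0.102 to -0.0307).

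The limma adjusted p for ADAM10 was 0.0432. The exact permutation p was 0.0286, unadjusted and the smallest possible. After Benjamini-Hochberg adjustment over the 9 member transcripts the permutation p was 0.129. With so high a smallest p, no member can pass that adjusted test unless most members reach the smallest p too. It therefore decides nothing about ADAM10. The difference was -0.0641 over replicates 1 and 3 and -0.0684 over replicates 2 and 4. In absolute size it stood at percentile 53.3 of the transcripts in range. The call was lost in 15 of 20 alternative analyses, all of which kept the sign. The adjusted p was 0.110, 0.119, 0.120 and 0.130 without MDA-LM2 replicate 1, 2, 3 and 4, and 0.0580, 0.0742 and 0.0809 without MDA-MB-231 replicate 1, 3 and 4. It was 0.0320 without MDA-MB-231 replicate 2. With a correlation allowed between series of a line that share the second number, it was 0.205. After centring of each series on its own median, the ADAM10 difference was -0.0431 (adjusted p 0.112). The median difference of all transcripts in range was -0.0166. The authors' deposited score for ADAM10 was 0.996, against -0.876 for ZNF395 and 0.734 for APP NM_201413. For every member in both tables the score had the sign opposite to the difference given here. With the absolute score read as 1 minus a p-value, a reading assumed here, the adjusted p was 0.0597 for ADAM10.

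The beta-secretase transcripts gave rates too scattered to compare. BACE1 makes the first cut on the way to amyloid beta, and BACE2 is its close relative, which cuts APP mainly inside the amyloid beta stretch. BACE1 NM_138973, which lacks the stretch printed above, had rates of -1.03, -0.0124, 9.52 and 0.392 in MDA-LM2. The MDA-MB-231 rates were -1.003, -0.324, 7.57 and -2.00. In both lines replicate 3 was highest and far from the rest. The difference of 1.16 (SE 3.06, 95% interval -6.07 to 8.39) had a limma adjusted p of 0.810, and without MDA-LM2 replicate 3 it was -1.28. Without MDA-MB-231 replicate 3 it was 3.33, and without MDA-MB-231 replicate 4 it was 0.138.

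BACE1 NM_001207048, which holds that stretch, was listed in MDA-LM2 only and was the sole BACE1 isoform with no rate beyond 1, at 0.126, 0.0896, 0.0862 and 0.333. NM_001207049, without it, was listed in MDA-MB-231 only, at -1.20, 9.73, -2.25 and -2.10. All 4 of those rates lay beyond 1. BACE2 NM_012105 was listed in MDA-MB-231 only, at 7.41, 0.0772, 7.06 and 7.03, with 3 rates close together and replicate 2 near 0.

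Neither gamma-secretase subunit among the members was called. PSEN2, a presenilin and so a catalytic subunit, had rates in MDA-LM2 of 1.07, 0.195, 1.05 and 0.194 for its transcript NM_000447. In MDA-MB-231 it had -0.0445, 0.0527, -0.00438 and -0.0745. Every MDA-LM2 rate lay above every MDA-MB-231 rate, and in MDA-LM2 replicates 1 and 3 (mean 1.06) lay above replicates 2 and 4 (mean 0.194). The difference of 0.647 (SE 0.235, 95% interval 0.0918 to 1.20) had an unadjusted exact permutation p of 0.0286, the smallest possible. Adjusted over the member transcripts the permutation p was 0.129, which decides nothing, for the reason given for ADAM10. The difference did not pass in limma, after adjustment over all transcripts (adjusted p 0.141). The difference was 1.09 over replicates 1 and 3 and 0.205 over replicates 2 and 4, so its size depended on the pair of series.

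NCSTN, the subunit that holds the substrate's end, had rates of 0.0287, 0.0647, 0.00689 and 0.0302 in MDA-LM2 for its transcript NM_015331. The MDA-MB-231 series gave 0.0654, 0.0715, 0.0579 and 0.0531. Replicate 2 of MDA-LM2 lay among the MDA-MB-231 values and the other 3 lay below them. The difference of -0.0293 (SE 0.0157, 95% interval -0.0665 to 0.00781) had a limma adjusted p of 0.287 and an exact permutation p of 0.0857. After centring of each series on its own median it was -0.00620 (adjusted p 0.799, exact permutation p 0.657). Uncentred, it was -0.0438 over replicates 1 and 3 and -0.0148 over replicates 2 and 4.

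**Figure D3:**
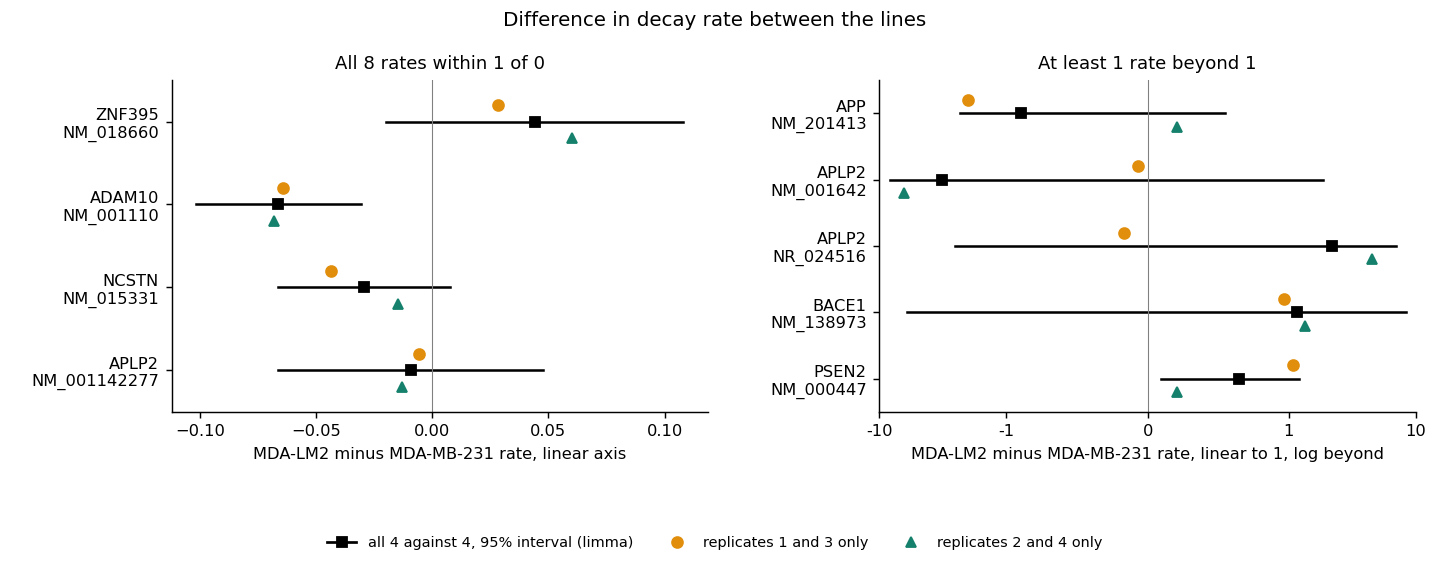
Difference in decay rate, MDA-LM2 minus MDA-MB-231, for the 9 member transcripts in both tables. Squares and lines are the limma estimate and its 95% interval over all 4 against 4 series, circles the difference over replicates 1 and 3, triangles that over replicates 2 and 4; the left axis is linear, the right one linear to 1 and logarithmic beyond. The circle and the triangle of ADAM10 lie close together at -0.0641 and -0.0684, and those of APP lie on either side of 0.

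Within a line the members kept an order that could be read only in part. In MDA-MB-231, among the 4 transcripts in range, ZNF395 was highest (0.216 ± 0.0411), then ADAM10 (0.109 ± 0.0202), NCSTN (0.0620 ± 0.00810) and APLP2 NM_001142277 (0.0218 ± 0.0363). ZNF395 and ADAM10 did not overlap, nor did ADAM10 and NCSTN, while NCSTN and APLP2 did. In MDA-LM2 ZNF395 (0.260 ± 0.0237) stood clear of these 3, whose rates overlapped with their neighbours: ADAM10 (0.0425 ± 0.00855), NCSTN (0.0326 ± 0.0239) and APLP2 (0.0124 ± 0.0307). For scale, the means of transcripts in range had quartiles of 0.0769, 0.148 and 0.231 in MDA-LM2. Those of MDA-MB-231 were 0.0989, 0.158 and 0.231. ZNF395 thus lay above the upper quartile in MDA-LM2 and between the median and the upper quartile in MDA-MB-231. NCSTN and APLP2 lay under the lower quartile in both lines, and ADAM10 only in MDA-LM2.

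The patterns most like those of ZNF395 and APP were found by Euclidean distance over all 8 rates, among 12760 transcripts of other genes. For ZNF395 they were LOC100129931 (distance 0.0427), PDE12 (0.0573) and TRIP10 (0.0622), against a median distance of 0.529. PDE12 is a mitochondrial nuclease that trims poly(A) tails, and TRIP10 is an adaptor that binds the GTPase CDC42. For APP NM_201413 they were SMAD5 (0.371), a mediator of BMP signalling, TNIP1 (0.373), an inhibitor of NF-kB signalling, and CKAP2 (0.379), a spindle protein, against a median distance of 2.88. Each of these 3 had rates near 2 in MDA-MB-231 replicates 1 and 3 and near 0 in replicates 2 and 4, as APP did: SMAD5 stood at 2.00, -0.0596, 2.09 and 0.0919 there, TNIP1 at 1.92, -0.180, 2.12 and 0.0548, and CKAP2 at 2.15, -0.284, 2.28 and 0.116. The APP pattern, high in 1 pair of series and near 0 in the other, is thus one that some transcripts of other genes have too. These 3 were picked for that likeness, and how many others share it was not counted.

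Genes around APP were read from 5 lists with 75 genes in all, of which 50 had rates in both lines, as 80 transcripts. Of these transcripts 4 were called slower in MDA-LM2 and 1 faster, and 52 had a lower mean there. The share called slower is near the 6.04% of all transcripts. Among the other secretase genes (6 genes in both tables, 9 transcripts), none was called in either direction and 7 transcripts had a lower mean in MDA-LM2. The alpha-secretase relative ADAM9 (NM_003816) had a mean of 0.0297 ± 0.0243 in MDA-LM2, against 0.106 ± 0.0259 in MDA-MB-231 (SD, n = 4 each). All 4 of its MDA-LM2 rates lay below all 4 in MDA-MB-231, with a difference of -0.0766 and a limma adjusted p of 0.0645. PSENEN, the smallest gamma-secretase subunit, had a difference of -0.187 with overlapping groups (adjusted p 0.314); without MDA-MB-231 replicate 2 it was -0.294 with an adjusted p of 0.0395. The median difference of this list was -0.0540 over all 9 transcripts, against -0.0538 over all transcripts, and also -0.0540 over its 5 in range, against -0.0166 over all in range.

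Among APP adaptors and trafficking genes (22 genes in both tables, 39 transcripts), 3 transcripts were called slower in MDA-LM2 and none faster. NAE1 (NM_003905), the APP-binding subunit of the NEDD8-activating enzyme, had rates from -0.00599 to 0.0217 in MDA-LM2, below the 0.0919 to 0.139 of MDA-MB-231, a difference of -0.106 (limma adjusted p 0.0126). RTN4 (NM_007008), a reticulon of the endoplasmic reticulum whose family binds BACE1, had rates from 0.0557 to 0.0673 there, below 0.148 to 0.284, a difference of -0.134 (adjusted p 0.0473). Its other isoforms in both tables, NM_153828 and NM_207521, had differences of 0.0173 and 0.0798 and no call. PICALM (NM_007166), a clathrin adaptor, had rates from 0.107 to 0.345 there, below 1.61 to 3.19, a difference of -2.18 (adjusted p 0.0300). All MDA-MB-231 rates of NM_007166 were beyond 1. PICALM isoforms NM_001008660 and NM_001206947 had differences of -0.0939 and -2.87, with overlapping groups and no call. NAE1 isoforms NM_001018159 and NM_001018160 had differences of -0.571 and -5.55 and no call. The median difference of this list was -0.106 over all 39 transcripts and 0.0118 over the 19 in range, so its sign depended on the transcripts with extreme rates.

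ITM2B was the only call among genes of amyloid beta binding and clearance (7 genes in both tables, 8 transcripts), and it was slower in MDA-LM2. ITM2B encodes BRI2, a membrane protein that binds APP and hinders its cleavage. Its rates ran from -0.0235 to 0.0639 in MDA-LM2, below the 0.142 to 0.170 of MDA-MB-231, a difference of -0.141 (limma adjusted p 0.0181). IDE, which degrades amyloid beta, was likewise lower in all 4 MDA-LM2 series, with a difference of -0.0815 and no call (adjusted p 0.0661). Most separated but uncalled transcripts of the lists were lower in all 4 MDA-LM2 series. Besides ADAM9 and IDE these were VPS35, TMED10, SPPL2A and 1 isoform each of NAE1, SHC1, SORT1, CD44 and EPHB2. Only GGA2 (0.112, limma adjusted p 0.0616) and JAG1 (0.0539, adjusted p 0.133) were higher in all 4 MDA-LM2 series. Of all transcripts, 16.6% lay fully below and 5.83% fully above.

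Other substrates of gamma-secretase (13 genes in both tables, 22 transcripts) gave 1 call, faster in MDA-LM2. It was CD44 NM_001202557, an isoform of the hyaluronan receptor, with rates from 0.139 to 0.223 in MDA-LM2, above the 0.00314 to 0.0606 of MDA-MB-231, a difference of 0.155 (limma adjusted p 0.0135). Another 6 CD44 isoforms had no call, and every one of them had a lower mean in MDA-LM2. That list also holds SPPL2A, which is a related intramembrane protease. NOTCH1, the best known substrate, decayed at 0.339 ± 0.0266 in MDA-LM2, against 0.392 ± 0.160 in MDA-MB-231, with overlapping groups. The relatives of ZNF395 had no call: SLC2A4RG differed by -0.168 (adjusted p 0.288) and ZNF704 by 0.113 (adjusted p 0.455).

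These calls varied with the analysis. Over 19 alternatives, CD44 passed in 16, ITM2B in 13, NAE1 in 12 and RTN4 in 8, and PICALM passed in 7 of 17. The highest adjusted p was between 0.405 and 0.442 for each, in the analysis of means of series that share the second number. That analysis called 0 transcripts of any gene, so not passing there does not set these 5 apart. With a correlation allowed between series that share the second number, CD44 (0.0410) and ITM2B (0.0421) passed, and NAE1 (0.0512), PICALM (0.0578) and RTN4 (0.175) did not. Of the 4 with rates in range, none passed in that analysis of transcripts in range (0.0981 for CD44 and ITM2B, 0.113 for NAE1, 0.163 for RTN4). It too called 0 transcripts of any gene. NAE1 passed without MDA-LM2 replicate 2 or 3 and not without replicate 1 (0.0528) or 4 (0.0504). ITM2B did not pass without MDA-LM2 replicate 1 (0.0587) or 3 (0.0596). RTN4 did not pass without any 1 of the MDA-LM2 series (0.113 to 0.134) or without MDA-MB-231 replicate 1 (0.0875). PICALM did not pass without any 1 of the MDA-LM2 series (0.0831 to 0.0995) or without MDA-MB-231 replicate 3 (0.0535). CD44 passed with each of the 8 series left out in turn. With the replicate number as a block, none of these 5 passed (0.0624 for CD44 to 0.172 for RTN4).

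**Figure D4:**
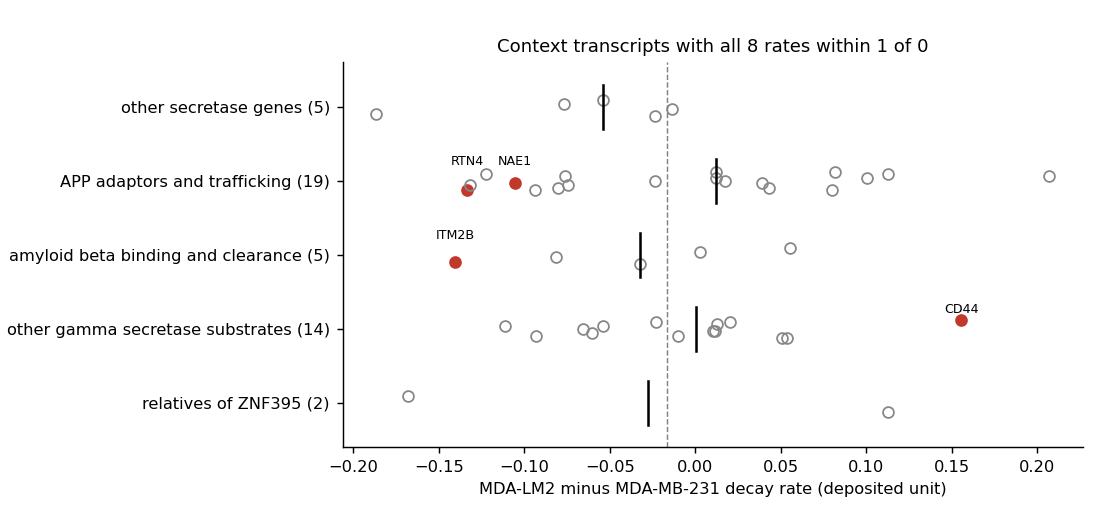
Difference in decay rate, MDA-LM2 minus MDA-MB-231, in the deposited unit, for the 45 transcripts of the 5 lists with all 8 rates within 1 of 0. Each circle is a transcript (number per list in brackets), filled where called; bars are list medians and the dashed line the median of all transcripts in range, -0.0166. The called PICALM isoform, NM_007166, is not shown because its MDA-MB-231 rates lie beyond 1. The called RTN4, NAE1 and ITM2B transcripts lie at the left and the called CD44 transcript at the right.

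TARBP2 itself gave no usable difference. NM_134323 had rates of 0.193, 9.32, 0.218 and 0.205 in MDA-LM2. Its MDA-MB-231 rates were 0.154, 9.51, 0.101 and 9.52, with a difference of -2.34 (limma adjusted p 0.652). NM_004178 was listed in MDA-LM2 only, at 0.121, 0.235, 0.695 and 0.208. A decay rate is not a level, and no TARBP2 amount is given by these tables.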

How the data were processed

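The authors deposited decay rates by RefSeq transcript for 4 series of each line, each series spanning the chase, and a score. The score of differential stability was deposited as a t-score, per the file headers. The submitters' processing notes name TopHat, Cufflinks and the build hg18, with no versions or roles. How the rates were scaled over time, on what log base, and how zeros were handled is not given in the sources used here. Half-lives were therefore not computed, and read depth is unknown.

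Accessions were matched to symbols by a RefSeq gene table (12644 of the 12966 in both tables) and GENCODE release 29 (117), and 205 had none. No column was left unmapped. Exon positions and sequences are of GRCh38, a later build than hg18. Rates were compared with limma 3.58.1 under R 4.3.3, without a block and with a variance trend, after a test on simulated data. With simulated series independent of each other, the fit recovered 9% of added differences of 0.1 and 59% of those of 0.3. Of its 74 calls, 6 were false. Small differences thus mostly went uncalled there. The limma tests were two-sided, with Benjamini-Hochberg adjustment over all transcripts in both tables and a threshold of 0.05. Exact permutation tests were computed with numpy 2.4.6, and scipy 1.17.1 served for the 95% intervals. Permutation p-values are unadjusted unless stated otherwise. Series with the same number did not deviate together between the lines, so they were not treated as paired. Within a line, series with the same second number did share noise: their rates had Spearman correlations of 0.622 to 0.812, against 0.213 to 0.563 for other pairs. The main fit and the permutation tests treat all 4 series as independent, so their p-values are too small to that extent.

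The members and lists were chosen with earlier results of these data known. Genes named were all members, the 3 nearest patterns to APP and ZNF395, each list's called genes or, with none called, its 2 largest differences in range, and TARBP2. IDE, GGA2, JAG1, SPPL2A, NOTCH1, VPS35, TMED10, SHC1, SORT1, EPHB2 and the other NAE1, PICALM, RTN4 and CD44 isoforms were named after their values were seen.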

Additional observations from a re-analysis of the deposited data

Results flagged for a closer look

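Of 25 groups of 4 rates (a member transcript in a line), 7 had 1 rate so far from the other 3 that the gap, as a share of the group's range, exceeded Dixon's 95% critical value for 4 values. Chance alone marks about 1 group in 20. The rates far above the rest were 9.49 for APP NM_001204301 (replicate 2) and 9.58 for APP NM_001204302 (replicate 2) in MDA-LM2, 9.52 for BACE1 NM_138973 (replicate 3) in MDA-LM2 and 9.73 for BACE1 NM_001207049 (replicate 2) in MDA-MB-231. BACE1 NM_001207048 had a smaller gap, with 0.333 in MDA-LM2 replicate 4. APLP2 NR_024516 had -8.77 in MDA-MB-231 replicate 2, far below the rest. BACE2 NM_012105 had 0.0772 in MDA-MB-231 replicate 2, below 3 rates of about 7. Of these 7 transcripts, 6 belong to genes listed with several isoforms. Most of the 16 listed member transcripts do so too (APP 5, APLP2 3 and BACE1 3), so the 6 are not read as an excess. Whether read assignment between isoforms bears on these rates was not tested.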

How the results depend on the processing

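Of 170 recomputed member differences, 165 kept their direction. The differences that reversed were APLP2 NM_001142277 with series centred on their medians (0.0137, exact permutation p 0.629) and with 1 series left out (-0.0262 to 0.00298), APLP2 NR_024516 as a gene median (-0.00931) and BACE1 NM_138973 with 1 series left out (-1.28 to 3.33). The cause was not tested. ADAM10 kept -0.0662 and lost its call with no variance trend (adjusted p 0.0777), robust moderation (0.0696), the authors' score (0.0597), a correlation between series sharing the second number (0.205; 0.227 in range, added after seeing the data) and their means (0.456). Centred it was -0.0431, and with 1 series left out -0.0726 to -0.0583. With medians in place of means, exact permutation p rose to 0.0571 for ADAM10 and PSEN2.

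The replicate block gave 310 slower and 31 faster transcripts and ADAM10 an adjusted p of 0.191. Same-numbered series of the 2 lines had deviations correlated between -0.0160 and 0.00607, so the replicate number does not pair the lines. The correlation fit gave 385 slower and 37 faster, the means fit and the correlation fit in range 0 of each, centring 442 faster, and the authors' score 139 faster. Leaving out 1 series gave 457 to 1082 slower and 91 to 352 faster.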
